A study of Homo sapiens with 6 samples.

Results

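The genes described here encode proteins that control the release of paused RNA polymerase II. They are BRD2 and BRD3 of the BET family, the inhibitors HEXIM1 and HEXIM2, the RNA-binding protein LARP7, the kinase CDK9 with its cyclins CCNT1 and CCNT2, and the scaffold AFF4. These 9 genes were taken by symbol from the 20683 gene symbols of the count tables, and all 9 were found and tested. Their messenger RNA was counted in HT-1080, an established human fibrosarcoma cell line, after 4 h in 2 groups of 3 libraries each. One group received the compound SLV-8472-01, described in the series as an inhibitor of the kinase IRAK4, at a labelled dose of 5 mM, for which the labels do not say whether it is a stock or the concentration on the cells. The control group received 0.1% DMSO. The series calls the 3 libraries of a group biological replicates and does not say whether they came from separately grown cultures, so p-values measure the spread between these libraries.

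CDK9 and cyclin T together form P-TEFb, the kinase that phosphorylates RNA polymerase II and the factors that hold it near the start of genes, and so lets it enter productive elongation. Much of P-TEFb is kept inactive in a particle built on the 7SK RNA, in which HEXIM1 or HEXIM2 blocks the kinase and LARP7 protects the RNA. BET proteins bind acetylated histones, and AFF4 holds P-TEFb in the super elongation complex, and both bring elongation activity to chromatin. HEXIM1 was first described as a gene induced by hexamethylene bisacetamide, and its mRNA is often followed as a marker of BET inhibition. These statements are background and not results of these data.

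The upstream sequences of HEXIM1, HEXIM2 and CDK9 are shown because the 2 HEXIM genes are neighbours on chromosome 17 that were called in opposite directions, and CDK9 encodes the kinase that both inhibit. In RefSeq (GRCh38.p14) the HEXIM2 starts lie 11699 and 13400 bases downstream of the HEXIM1 start on the same strand, with no other gene lying wholly between the pair. Each sequence runs 5′ to 3′ from 250 bases before to 50 bases after a start, and capitals mark matches to the motifs listed after them. The regions, all on the plus strand, are chr17:45148225-45148524 for HEXIM1, chr17:45159924-45160223 and chr17:45161625-45161924 for the first and second HEXIM2 start, and chr9:127785784-127786083 for CDK9.
HEXIM1: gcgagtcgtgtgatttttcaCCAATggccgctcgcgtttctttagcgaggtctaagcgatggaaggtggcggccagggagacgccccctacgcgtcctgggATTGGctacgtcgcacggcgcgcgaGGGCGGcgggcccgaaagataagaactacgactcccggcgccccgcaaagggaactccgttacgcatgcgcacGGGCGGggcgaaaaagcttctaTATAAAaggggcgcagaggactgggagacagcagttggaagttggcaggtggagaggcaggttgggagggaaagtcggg
HEXIM2, first start: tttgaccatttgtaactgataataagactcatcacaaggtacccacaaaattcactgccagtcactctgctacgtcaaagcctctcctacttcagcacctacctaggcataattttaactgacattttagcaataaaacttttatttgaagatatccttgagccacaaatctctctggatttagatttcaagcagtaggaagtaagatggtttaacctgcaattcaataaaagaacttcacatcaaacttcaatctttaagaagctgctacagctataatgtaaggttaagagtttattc
HEXIM2, second start: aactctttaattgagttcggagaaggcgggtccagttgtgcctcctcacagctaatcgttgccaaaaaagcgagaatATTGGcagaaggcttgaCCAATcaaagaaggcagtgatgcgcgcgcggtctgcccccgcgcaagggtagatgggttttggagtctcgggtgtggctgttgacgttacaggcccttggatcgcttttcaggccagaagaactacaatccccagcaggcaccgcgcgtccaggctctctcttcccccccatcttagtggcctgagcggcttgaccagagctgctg
CDK9: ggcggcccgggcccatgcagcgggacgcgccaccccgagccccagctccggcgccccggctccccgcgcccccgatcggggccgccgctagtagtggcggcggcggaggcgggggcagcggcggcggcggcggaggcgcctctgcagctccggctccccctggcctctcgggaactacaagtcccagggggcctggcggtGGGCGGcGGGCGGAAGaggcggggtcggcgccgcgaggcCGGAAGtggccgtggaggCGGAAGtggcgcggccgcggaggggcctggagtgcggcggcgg

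The motifs searched on both strands were the CCAAT box (CCAAT), the GC box (GGGCGG), the E-box (CACGTG), the TATA motif (TATAAA), the cyclic AMP response element (TGACGTCA), the AP-1 motif (TGACTCA) and an ETS core (CGGAAG). The GC box and the ETS core share bases in 1 place of the CDK9 sequence. All 9 genes matched the RefSeq promoter table, with 15 entries, since some have several starts. The HEXIM1 sequence held 2 CCAAT boxes, 2 GC boxes and a TATA motif at bases -29 to -24. The first HEXIM2 sequence held none of the motifs, and the second held 2 CCAAT boxes. The CDK9 sequence held 2 GC boxes and 3 ETS cores and no CCAAT box or TATA motif. HEXIM1 supplied the single TATA match among the 15 entries, and 11.5% of all 35116 promoter entries hold one. The GC box occurred in 11 of the 15 entries and in 45% of all entries, the CCAAT box in 5 of 15 and in 34.6%, and the ETS core in 3 of 15 and in 19.5%. The E-box was in 2 of the 15 entries (7.26% of all), in CCNT1 and AFF4, the cyclic AMP response element in 1 (1.85% of all), in LARP7, and the AP-1 motif in 0 (4.95% of all). These matches describe the letters of the sequences, and no binding was measured.

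The library totals ran from 7644478 to 11427779 counts with the inhibitor and from 12003104 to 15336351 with DMSO, so every inhibitor library was shallower than every DMSO library. Of the cell type markers checked, 5 of 5 mesenchymal genes passed the count filter, 4 of which rose with the inhibitor (80%, beside 9.92% of all tested genes), and the others were at or near 0 (CDH1 and PTPRC without a count in any library). Levels below are normalised counts scaled to a library of 1000000 counts (CPM). They are not compared between genes, because the panel amplifies 1 part of each transcript with an efficiency that differs between genes, and a sum of counts per length does not apply.

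Among the 9 genes, HEXIM2 and CDK9 rose and BRD2 and HEXIM1 fell, while BRD3, CCNT1, CCNT2, LARP7 and AFF4 were not called. Rose and fell mean an adjusted p under 0.05 in edgeR's quasi-likelihood test across all 11391 tested genes. In that test 9.92% of all tested genes rose and 10.3% fell, 20.2% in all, beside 4 calls (44.4%), 2 in each direction, among these 9. With 9 genes, each call moves that share widely, and the share was not tested. In 5 of the 9 genes all libraries of one group lay above all of the other, as they did in 36.3% of all tested genes. The median log2 fold change of the 9 genes was -0.20, beside 0.0034 for all tested genes. That median is the value of LARP7, a gene with few counts and an SE of 0.30.

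**Figure D1:**
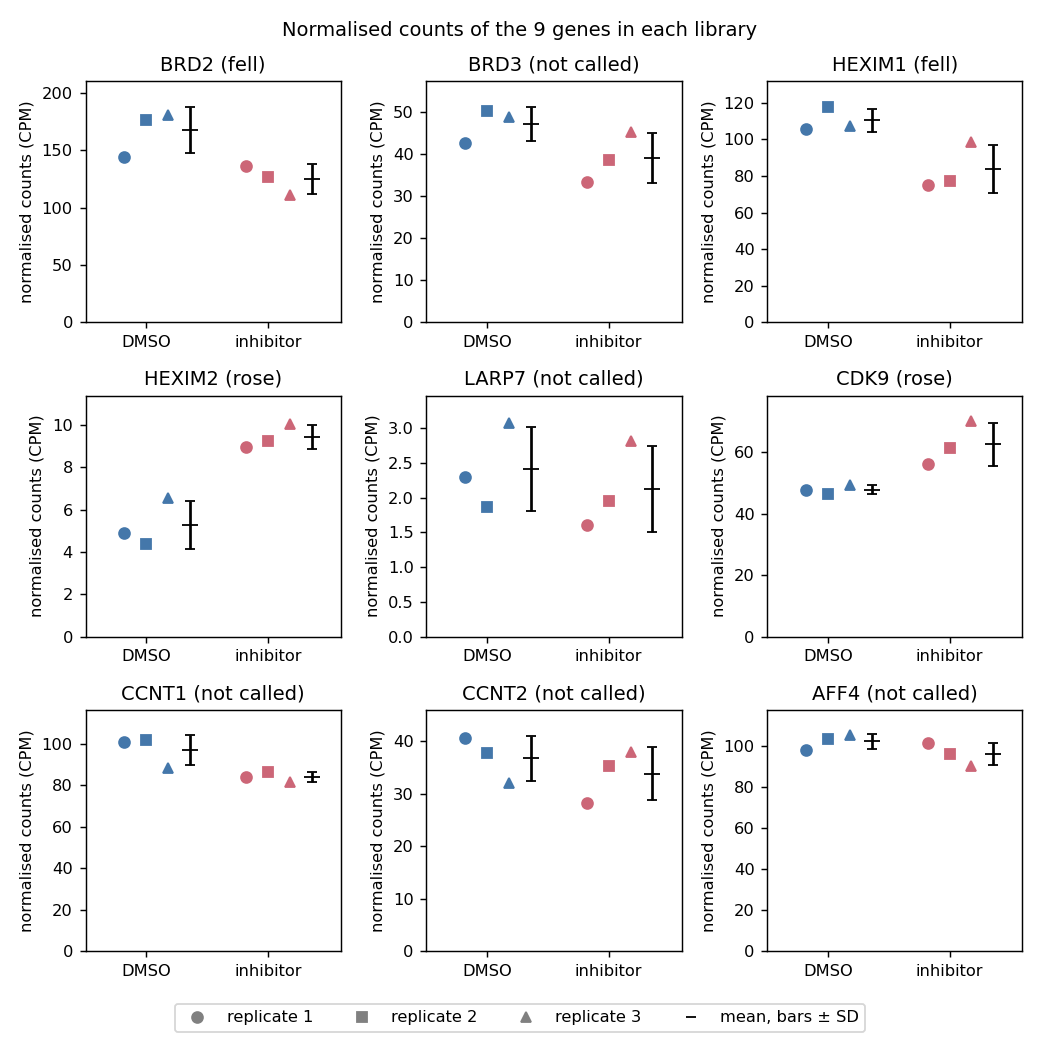
Normalised counts (CPM, vertical axis from 0) of each of the 9 genes in the 3 DMSO and 3 inhibitor libraries, with a marker shape per replicate number and the mean ± SD beside each group. HEXIM2 and CDK9 lie higher in every inhibitor library and BRD2, HEXIM1 and CCNT1 lower, and the other 4 genes overlap between the groups.

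HEXIM1, the main inhibitor of P-TEFb in the 7SK particle, had normalised counts of 75.3, 77.2 and 98.8 CPM with the inhibitor and 105.9, 117.6 and 107.6 CPM with DMSO (replicates 1, 2 and 3). Every inhibitor library was below every DMSO library, but inhibitor replicate 3 lay much closer to the controls than the other inhibitor libraries. The means were 83.8 ± 13.0 CPM (SD, n = 3) and 110.4 ± 6.33 CPM, a log2 fold change of -0.40 ± 0.11 (SE, adjusted p = 0.0152), or 24.3% less. The raw counts were 840, 710 and 737 against 1664, 1822 and 1295. HEXIM1 was no longer called when DMSO replicate 2 (adjusted p = 0.0802) or either of inhibitor replicates 1 (0.0765) and 2 (0.0804) was left out. In the basic set of GENCODE 29, HEXIM1 has 1 protein-coding transcript of 1 exon, so there is no annotated splice form that the amplified part could miss.

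HEXIM2, its paralogue with the same inhibitory role, went the other way. Its normalised counts were 8.97, 9.25 and 10.0 CPM with the inhibitor and 4.90, 4.39 and 6.57 CPM with DMSO. All inhibitor libraries were close together and above the highest DMSO library. HEXIM2 rose from 5.29 ± 1.14 to 9.42 ± 0.56 CPM (SD, n = 3), a log2 fold change of 0.84 ± 0.18 (SE, adjusted p = 0.0025), or 1.79-fold. The raw counts behind these values were 100, 85 and 75 (inhibitor) and 77, 68 and 79 (DMSO), so the raw counts of the groups were alike and the difference appears once the deeper DMSO libraries are scaled. The call held in each of the 15 alternatives that could test the gene (adjusted p from 2.6e-04 to 0.0271), among them libraries thinned to 1 depth, where the log2 fold change was 0.97. Its change stood at the 97.2th percentile of all tested genes.

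The count ratio of HEXIM1 to HEXIM2 within a library does not depend on the scaling between libraries. It was 8.40, 8.35 and 9.83 with the inhibitor and 21.6, 26.8 and 16.4 with DMSO. The lowest DMSO ratio was well above the highest inhibitor ratio. HEXIM1 was lower and HEXIM2 higher in every inhibitor library, so this ratio had to separate and adds no evidence of its own. The geometric mean ratio was 8.83 with the inhibitor and 21.2 with DMSO, a log2 difference of -1.26 (exact permutation test, two-sided, p = 0.1, which is the lowest value 3 libraries against 3 allow, and adjusted p = 0.25 over the 5 ratios examined). RefSeq places the antisense gene HEXIM2-AS1 over parts of both HEXIM1 and HEXIM2, and HEXIM2-AS2 over part of HEXIM2. The strand setting of the counting is not given in the sources used here, so antisense reads, if amplified, could not be told apart from those of either gene.

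LARP7, the protein that stabilises the 7SK RNA, had few counts. Its raw counts were 18, 18 and 21 (inhibitor) and 36, 29 and 37 (DMSO), or 1.61, 1.96 and 2.81 CPM and 2.29, 1.87 and 3.08 CPM. The groups overlapped. The log2 fold change was -0.20 ± 0.30 (SE, adjusted p = 0.688), and an SE of this size leaves room for a change as large as that of HEXIM1 or CDK9 in either direction. The ratio of HEXIM1 to LARP7 was 46.7, 39.4 and 35.1 with the inhibitor and 46.2, 62.8 and 35.0 with DMSO, and overlapped (log2 difference -0.22, exact permutation p = 0.7, adjusted p = 0.7).

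CDK9, the kinase subunit of P-TEFb, had normalised counts of 56.2, 61.5 and 70.1 CPM with the inhibitor and 47.8, 46.6 and 49.2 CPM with DMSO. The DMSO libraries were within a narrow range and every inhibitor library was above it, with inhibitor replicate 3 the highest. CDK9 rose from 47.9 ± 1.33 to 62.6 ± 7.0 CPM (SD, n = 3), a log2 fold change of 0.38 ± 0.11 (SE, adjusted p = 0.0169), or 30.5% more. CDK9 was no longer called when inhibitor replicate 3 (adjusted p = 0.0706) or DMSO replicate 2 (0.0802) was left out. The call was also lost in a single random thinning of every library to 1 depth (0.0568). GENCODE 29 lists 1 protein-coding transcript of CDK9 in its basic set.

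HEXIM1, the inhibitor, and CDK9, its target, thus moved in opposite directions at the mRNA level. The count ratio of HEXIM1 to CDK9 was 1.34, 1.26 and 1.41 with the inhibitor and 2.22, 2.53 and 2.19 with DMSO. The spread within each group was small beside the gap between the groups. HEXIM1 was lower and CDK9 higher in every inhibitor library, so the separation of this ratio was bound to follow. The geometric mean ratio was 1.33 against 2.31, a log2 difference of -0.79 (exact permutation p = 0.1, adjusted p = 0.25), and from -0.83 to -0.72 when any single library was left out.

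**Figure D2:**
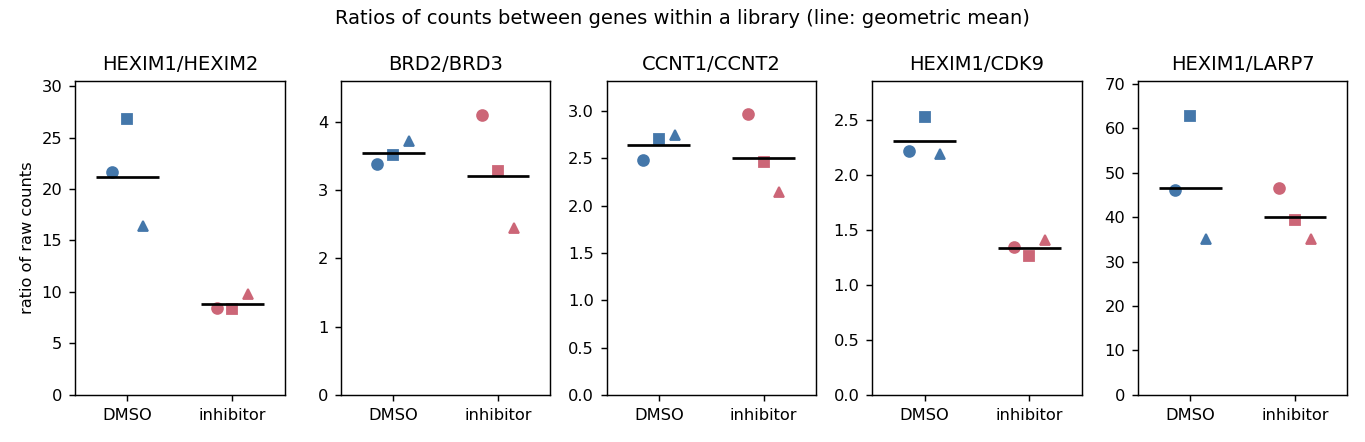
Ratios of raw counts between 2 genes within a library (vertical axes from 0, a marker shape per replicate number, lines at the geometric mean of a group). The HEXIM1/HEXIM2 and HEXIM1/CDK9 ratios are lower in all 3 inhibitor libraries than in any DMSO library, and the other 3 ratios overlap. Since HEXIM1 was lower and HEXIM2 and CDK9 higher in every inhibitor library, those ratios had to separate.

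The cyclin subunits of P-TEFb did not rise with CDK9. CCNT1, which encodes cyclin T1, was at 84.0, 86.6 and 81.5 CPM with the inhibitor and 100.7, 101.9 and 88.5 CPM with DMSO. All inhibitor libraries were below all DMSO libraries, but DMSO replicate 3 was near them, and the difference was not called (log2 fold change -0.21 ± 0.10, SE, adjusted p = 0.164). CCNT2, which encodes cyclin T2, was at 28.2, 35.2 and 38.1 CPM with the inhibitor and 40.6, 37.7 and 32.2 CPM with DMSO. Those groups overlapped (-0.13 ± 0.13, adjusted p = 0.507). The ratio of CCNT1 to CCNT2 was 2.97, 2.46 and 2.14 with the inhibitor and 2.48, 2.70 and 2.75 with DMSO (log2 difference -0.08, exact permutation p = 0.6, adjusted p = 0.7).

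AFF4, the scaffold that binds P-TEFb in the super elongation complex, was at 101.1, 95.9 and 90.3 CPM with the inhibitor and 97.9, 103.2 and 105.1 CPM with DMSO. The groups overlapped and the SE was among the smallest of the 9 genes (log2 fold change -0.09 ± 0.10, adjusted p = 0.571).

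BRD2, a BET protein with paired bromodomains, had normalised counts of 136.7, 126.5 and 110.7 CPM with the inhibitor and 144.4, 176.7 and 181.1 CPM with DMSO. The groups did not overlap, but inhibitor replicate 1 and DMSO replicate 1 were near each other. BRD2 fell from 167 ± 20.1 to 125 ± 13.1 CPM (SD, n = 3), a log2 fold change of -0.42 ± 0.11 (SE, adjusted p = 0.0104), or 25.4% less. The call was lost without DMSO replicate 2 (adjusted p = 0.0595) and without DMSO replicate 3 (0.0551). GENCODE 29 lists 5 protein-coding transcripts of BRD2 in its basic set, with 2 to 13 exons, and a count of the amplified part cannot separate them.

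BRD3, its close relative, was at 33.4, 38.5 and 45.2 CPM with the inhibitor and 42.6, 50.3 and 48.7 CPM with DMSO. Inhibitor replicate 3 was above the lowest DMSO library, and the difference was not called (log2 fold change -0.28 ± 0.12, SE, adjusted p = 0.11). It was called as a fall without inhibitor replicate 3 (-0.40, adjusted p = 0.028) and with library totals as the scaling (-0.35, adjusted p = 0.0412). The ratio of BRD2 to BRD3 was 4.10, 3.29 and 2.45 with the inhibitor and 3.39, 3.51 and 3.72 with DMSO, so the wider spread was in the inhibitor group. The log2 difference was -0.14 (exact permutation p = 0.7, adjusted p = 0.7). The inhibitor ratios lay on both sides of the DMSO ratios. A difference in response between BRD2 and BRD3 was not shown, although only BRD2 was called. From 3 libraries against 3 this test cannot give a p under 0.1, so it could not have shown such a difference at 0.05. RefSeq places BRD3OS over part of BRD3, with the same limit on strand. BET genes other than BRD2, BRD3 and BRDT are not analysed here.

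**Figure D3:**
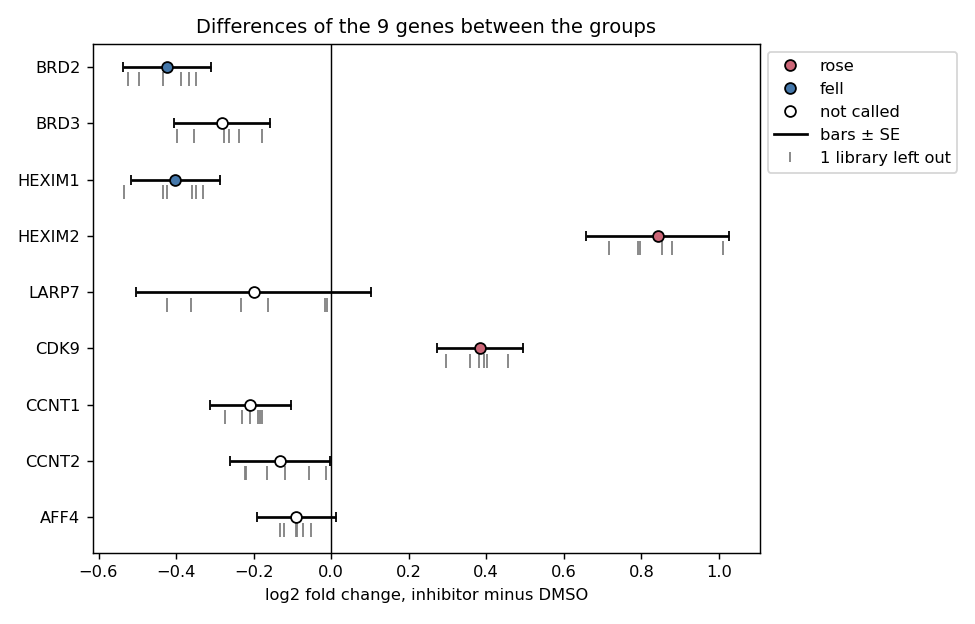
log2 fold change (inhibitor minus DMSO, horizontal axis) of each of the 9 genes, with bars of 1 SE, and grey ticks for the value with each library left out in turn. HEXIM2 at 0.84 stands to the right of CDK9 at 0.38, BRD2 and HEXIM1 lie near -0.4, and no tick of any gene crosses 0.

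Inhibitor replicate 3 was the shallowest of the 6 libraries. It was the highest of the inhibitor libraries for BRD3, HEXIM1, HEXIM2, LARP7, CDK9 and CCNT2 and the lowest for BRD2, CCNT1 and AFF4. In a group of 3, every library except the middle lies at an end. How often this library does so among all tested genes was not counted. Without inhibitor replicate 3 the log2 fold change was -0.54 for HEXIM1, -0.35 for BRD2, 0.80 for HEXIM2 and 0.30 for CDK9. The part of depth in these differences was not tested beyond the thinned libraries.

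The other genes of the pathway were described from lists chosen with earlier results of these data known, without the 9 genes. Of 12 genes listed for 7SK binding or P-TEFb release, 0 rose (beside 9.92% of all tested genes) and 4 fell, or 33.3% beside 10.3%. The median log2 fold change was -0.18. The list includes ZC3H8, whose place in it is uncertain and which is among the 4 that fell. The genes that fell were the splicing factors SRSF2 (from 99.9 ± 0.50 to 60.3 ± 9.74 CPM, log2 fold change -0.72 ± 0.11) and SRSF1 (-0.66 ± 0.11), ZC3H8 (-0.60 ± 0.18) and the RNA-binding protein gene SYNCRIP (-0.42 ± 0.10). SRSF1 had 417, 493 and 576 CPM with the inhibitor and 730, 789 and 822 CPM with DMSO, without overlap. ZC3H8 lost its call when DMSO replicate 1 (adjusted p = 0.114) or either of inhibitor replicates 1 (0.0517) and 2 (0.125) was left out. MEPCE, named outside the rule as the capping enzyme of the 7SK RNA, was at 109 ± 2.46 and 125 ± 5.34 CPM and was not called (-0.20 ± 0.10, adjusted p = 0.171).

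Of 11 genes of the super elongation complex and related partners, 2 rose and 2 fell (18.2% each, beside 9.92% and 10.3% of all tested genes), with a median log2 fold change of 0.20. EAF1, a partner of the ELL elongation factors, rose from 49.98 ± 4.46 to 74.0 ± 3.67 CPM (log2 fold change 0.56 ± 0.11, adjusted p = 8.2e-04). Its inhibitor libraries were at 69.8, 76.2 and 76.1 CPM and its DMSO libraries at 55.1, 47.5 and 47.3 CPM. AFF1, a scaffold related to AFF4, fell by 0.52 on the log2 scale (SE 0.12, adjusted p = 0.0033), and ICE1 by 0.50 (SE 0.12, adjusted p = 0.004). AFF3, a further relative of AFF4, rose by 0.36 ± 0.13 (adjusted p = 0.048), a call lost in 11 of 16 alternatives. The AFF genes were thus called in both directions or not at all.

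Of 18 genes for pausing and elongation factors (the NELF, DSIF, PAF1 and FACT complexes and others), 0 rose and 2 fell. The share that rose among all tested genes was 9.92%, and the median log2 fold change of the list was -0.11. The 11.1% that fell was close to the 10.3% of all tested genes. SUPT16H, a subunit of the histone chaperone FACT, fell by 0.52 on the log2 scale (SE 0.10), and IWS1 by 0.51 (SE 0.12). The count that fell was 4 with library totals as the scaling and 4 without inhibitor replicate 3. Of 14 other kinases, cyclins and phosphatases acting on RNA polymerase II, 0 rose (beside 9.92% of all tested genes) and 3 fell (21.4%, beside 10.3%), with a median of -0.13. CDK13, a kinase of the elongation phase, fell from 112 ± 16.1 to 73.0 ± 3.09 CPM (-0.62 ± 0.11, adjusted p = 4.5e-04). Its relative CDK12 fell by 0.33 (SE 0.10, adjusted p = 0.0211) and the Mediator cyclin gene CCNC by 0.40 (SE 0.12, adjusted p = 0.0173). The calls of CDK12 and CCNC were both lost without inhibitor replicate 2 (adjusted p = 0.0992 and 0.08) and in thinned libraries (0.0589 and 0.155). CDK12 was also lost without DMSO replicate 1 (0.0615) or 2 (0.065), and CCNC without DMSO replicate 3 (0.0841). No kinase of this list rose, whereas CDK9 did, with a call kept in 12 of 16 alternatives. With 9.92% of all tested genes rising, a list this short can lack a rise, so this does not set CDK9 apart.

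Of 33 tested genes with a bromodomain besides BRD2 and BRD3, 1 rose (3.03%, beside 9.92% of all tested genes) and 9 fell (27.3%, beside 10.3%), with a median log2 fold change of -0.22. The count that fell was 16 with library totals as the scaling, 5 without inhibitor replicate 2 and 4 without DMSO replicate 2. TRIM33, a cofactor of SMAD signalling, fell by 0.90 on the log2 scale (SE 0.15), from 17.3 ± 2.45 to 9.29 ± 0.26 CPM. ATAD2, a chromatin ATPase gene known as a target of E2F factors, fell from 110.1 ± 12.0 to 62.8 ± 3.27 CPM (-0.81 ± 0.11, adjusted p = 1.6e-05). BRD9, a subunit of a SWI/SNF complex, fell by 0.59 (SE 0.10), and TRIM66 rose by 0.81 ± 0.17, from 5.89 ± 0.53 to 10.2 ± 0.62 CPM. BRDT, the testis member of the BET family, was without a count in all 6 libraries, for which the upper limit (3 counts, counting error only) lay between 0.191 and 0.402 CPM in the 6 libraries.

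Besides HEXIM1, SERPINI1, ZCCHC24 and ZMYND8 have been reported as RNA markers of BET inhibition in tumour cells. Of these, SERPINI1 rose, from 5, 6 and 8 counts with DMSO to 10, 9 and 15 with the inhibitor (log2 fold change 1.46 ± 0.48, adjusted p = 0.0354). That call rests on few counts and was lost with DESeq2 (adjusted p = 0.0664), without inhibitor replicate 2 (0.0508) or 3 (0.184) and without DMSO replicate 1 (0.117) or 2 (0.111). ZCCHC24 and ZMYND8 were not called (0.03 ± 0.14 and 0.15 ± 0.15), and HEXIM1 fell. The sources used here do not give the direction in which BET inhibition moves each marker, and BET inhibition was not tested.

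**Figure D4:**
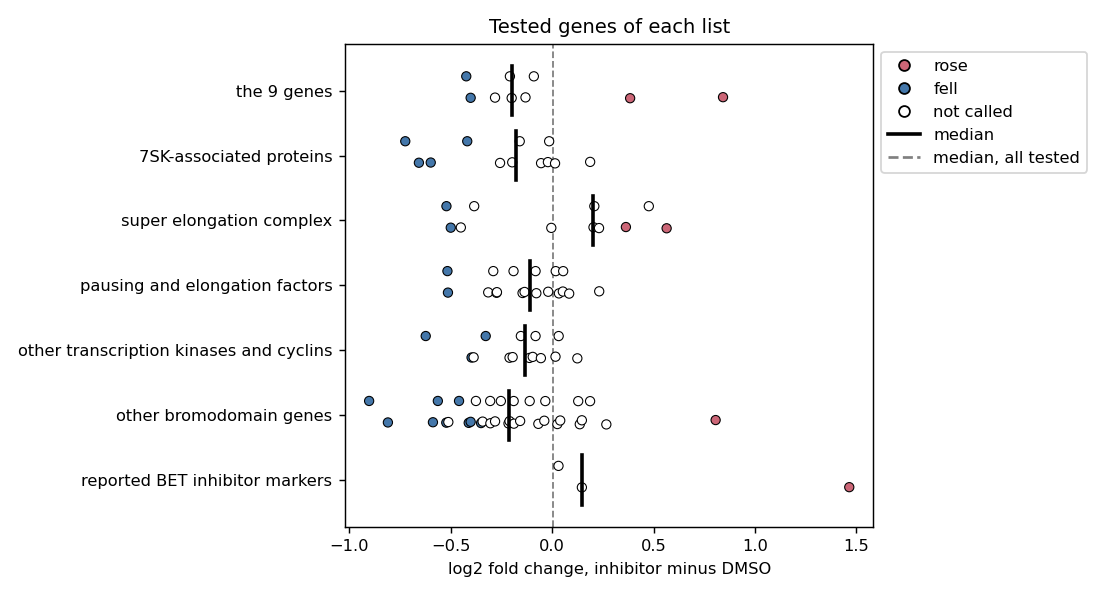
log2 fold change (inhibitor minus DMSO, horizontal axis) of each tested gene of the 9 genes and of the pathway lists, coloured by call, with the median of each list as a black bar and the median of all tested genes as a dashed line. Calls in the 7SK, pausing and kinase lists are falls alone, and the super elongation complex list holds calls on both sides.

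The genes whose log2 CPM followed HEXIM1 most closely over the 6 libraries, among the 6244 genes averaging 20 CPM or more, were CSTF1 (Pearson r = 0.997), ATP6V1C1 (0.996) and DDX52 (0.993). Those closest to HEXIM2, the other gene with the smallest p, were BTG1 (0.996), CNPY3 (0.993) and SLC4A7 (0.99). The 6 libraries form 2 groups of shared treatment and depth, so any gene that differs between them can score high, and 57 genes were above 0.95 for HEXIM1 and 73 for HEXIM2. BTG1, an antiproliferative gene, rose from 153 ± 14.96 to 216 ± 5.71 CPM (log2 fold change 0.50 ± 0.10, adjusted p = 0.0015). CSTF1, a subunit of the cleavage stimulation factor, fell from 25.1 ± 1.08 to 19.1 ± 2.81 CPM (-0.40 ± 0.13, adjusted p = 0.035), a call lost in 6 of 16 alternatives.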

How the data were processed

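RNA of HT-1080 cells was made into libraries with the Ion AmpliSeq Transcriptome Human Gene Expression Panel, a multiplex PCR of a part of each transcript, and read on an Ion Proton, per the labels. The deposited values are raw counts of reads per gene symbol, 1 table per library. The submitters' processing notes name HTSeq, DESeq2 1.20.0 and hg19 without a role. Aligner, annotation and strand setting: not given in the sources used here.

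Groups and replicate numbers came from the sample titles. The analysis used edgeR 4.0.16 (R 4.3.3): filterByExpr (11391 genes left, with 99.924% of counts), TMM scaling, and the quasi-likelihood test of inhibitor against DMSO without covariates, adjusted by Benjamini-Hochberg over all tested genes, with calls under 0.05. SE was obtained as the log2 fold change over the root of F. CPM are counts per 1000000 with TMM factors. Library pairs within a group differed beyond sampling noise (chi-square over its degrees of freedom 9.32 to 14.7). Since amplified reads carry no molecular identifiers, floors of 3 counts cover counting error only. Ratios were tested by exact permutation.

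The 9 genes and all lists were chosen with earlier results of these data known. Beyond the 9 genes, the text names up to 4 called genes of a list with the largest change, or 2 with the smallest p where none was called, and the 3 genes most like HEXIM1 and like the other gene with the smallest p. Promoters came from RefSeq (GRCh38.p14), names of overlapping genes from its gene table, and transcripts from GENCODE 29. Alternatives were 3 other scalings, 2 filters, a replicate block, DESeq2 1.42.0, limma 3.58.1 (voom), a test against a fold of 1.2, thinned libraries and each library left out. The thinned libraries are a single random draw to the smallest total. The procedure was also run on counts simulated from the dispersions of this fit, which checks the code and not the calls made here.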

Additional observations from a re-analysis of the deposited data

How the results depend on the processing

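Each of the 9 genes kept its direction in every alternative run, and HEXIM2 kept its call in each of its 15. In the test against a fold of 1.2, which asks for more, 829 genes were called (449 rose and 380 fell), and of the 9 genes 1, HEXIM2, as 1 rose and 0 fell. There BRD2 (-0.42, adjusted p = 0.184), HEXIM1 (-0.40, 0.234) and CDK9 (0.38, 0.271) lost their calls. HEXIM2 and LARP7 could not be tested with a minimum mean of 10 CPM, so 1 of the 9 genes rose there, and 1 rose in thinned libraries, where CDK9 was at 0.34. BRD3 was called with library totals as the scaling (-0.35), under which the median of all genes moved by -0.0716 and 831 genes rose and 1714 fell, against 1130 and 1168. Other scalings, limma voom and DESeq2 changed no call of the 9 genes.

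With any single library left out, 1405 to 2246 genes were called (684 to 1133 rose, 721 to 1113 fell), lowest without DMSO replicate 2. Of the 9 genes 1 to 4 were called, 1 to 2 rising and 0 to 3 falling, and without DMSO replicate 2 HEXIM2 alone was called. The log2 fold change ran from -0.52 to -0.35 for BRD2, -0.40 to -0.18 for BRD3, -0.54 to -0.33 for HEXIM1 and 0.30 to 0.46 for CDK9. The log2 ratio difference ran from -0.32 to 0.053 for BRD2/BRD3 and from -0.20 to 0.033 for CCNT1/CCNT2, positive in both without inhibitor replicate 3. The cause of these losses was not tested.

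Deviations of same-numbered libraries correlated at 0.0317, -0.0166 and 0.0069, and no library correlated best with its own number. From 3 libraries a group, such correlations cannot show whether libraries of the same number shared a batch. With a replicate block 2223 genes were called, and 4 of the 9 genes, with the same directions (HEXIM2 0.85, HEXIM1 -0.41, BRD2 -0.42, CDK9 0.38). Depth limits genes with few counts, such as LARP7 (18 to 37 counts a library) and SERPINI1 (5 to 15).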
